A study of Mus musculus with 8 samples.

Results

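The BCL2 family decides whether a cell keeps the outer membrane of its mitochondria intact. Its anti-apoptotic proteins, among them BCL2, MCL1, BCL-XL (*Bcl2l1*) and A1 (*Bcl2a1*), hold back the effectors BAX and BAK1, which open pores in that membrane and release cytochrome c. The BH3-only proteins, among them BIM (*Bcl2l11*), BID and PUMA (*Bbc3*), respond to stress signals and tip the balance towards the effectors. In myeloid cells, MCL1 is known for keeping progenitors alive and A1 for its expression in neutrophils.

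Binding of PU.1 and CEBPA was examined here at 10 genes of this family. They were the anti-apoptotic genes *Bcl2*, *Mcl1*, *Bcl2l1*, *Bcl2a1b* and *Bcl2a1d*, the effectors *Bax* and *Bak1*, and the BH3-only genes *Bcl2l11*, *Bid* and *Bbc3*. A peak belonged to a gene if its centre lay in the gene body or within 20 kb of it. By this rule the 10 genes, of 21938 protein-coding genes, held 81 of the 67673 peaks in 4 peak lists.

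The cells belonged to X18.1.1, a murine AML cell line that arose after irradiation and that has lost one *Pu.1* allele and carries mutations in the other. A pair of clones was compared. The PU.1− line held an empty vector and so had only mutant PU.1. The PU.1+ line held PuER, wild-type PU.1 fused to an oestrogen receptor domain that 4-hydroxytamoxifen (OHT) activates, driven from a retroviral vector. Both lines were given 100 nM OHT for 2 h, and each line was 1 clone. ChIP-Seq reads the DNA that an antibody pulls down with its protein, and places where reads pile up are called as peaks. There was 1 library for each antibody and line, with no replicate, and the lines could not be compared by a test. Differences between clones and between genotypes cannot be told apart. The PU.1+ cells also kept the mutant allele, and the PU.1 lists do not separate mutant from fusion protein. The lists gave only the position of each peak, all 400 bp wide, so the depth behind them is unknown. The PU.1 antibody gave 5288 peaks in PU.1− but 15683 in PU.1+, and the CEBPA antibody 26119 and 20583. The PU.1 list was thus longer and the CEBPA list shorter in PU.1+ across the genome as well as at these genes, and the part of depth in this was not tested. Peaks found in 1 line alone are named PU.1+-only or PU.1−-only, and those that overlapped a peak of the same antibody in the other line by at least 1 bp are named shared.

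PU.1 recognises the ETS sequence GGAAGT, with a preference for the longer GAGGAAGT, and CEBPA recognises sequences such as TTGCNNAA. To show what lay under the peaks, 12 stretches are printed where PU.1 or CEBPA peaks at these genes held either sequence in their central 80 bp, first those bound by both factors. Each runs from 40 bases before the first peak centre to 40 bases after the last, on the plus strand of GRCm38 (mm10). Capitals mark GGAAGT or TTGCNNAA on either strand, so that a site on the other strand reads ACTTCC or TTNNGCAA. Of the 12 stretches, 9 held an ETS site, 6 a CEBP site and 3 held both. The first pair is of places where both factors were called only in PU.1+.
Mcl1, upstream, both factors PU.1+-only, chr3:95653716-95653855: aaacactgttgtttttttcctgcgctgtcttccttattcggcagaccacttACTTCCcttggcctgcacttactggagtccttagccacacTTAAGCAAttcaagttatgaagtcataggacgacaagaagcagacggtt
Bax, downstream, both factors PU.1+-only, chr7:45457487-45457606: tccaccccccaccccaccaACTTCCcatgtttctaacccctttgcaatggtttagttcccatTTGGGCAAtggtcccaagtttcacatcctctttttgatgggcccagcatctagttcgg

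At the *Mcl1* stretch the starts of the ETS and CEBP sites lay 40 bp apart, and at the *Bax* stretch 43 bp. The next stretches were bound by both factors in both lines, and those of *Mcl1* and *Bid* held the longer PU.1-type sequence, here on the minus strand.
Mcl1, upstream, both factors shared, chr3:95650770-95650871: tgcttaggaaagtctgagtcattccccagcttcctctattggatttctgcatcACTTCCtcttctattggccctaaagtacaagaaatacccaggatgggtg
Bid, intron, both factors shared, chr6:120902154-120902246: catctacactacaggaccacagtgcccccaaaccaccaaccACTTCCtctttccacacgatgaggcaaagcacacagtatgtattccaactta
Bcl2, intron, both factors shared, chr1:106569050-106569243: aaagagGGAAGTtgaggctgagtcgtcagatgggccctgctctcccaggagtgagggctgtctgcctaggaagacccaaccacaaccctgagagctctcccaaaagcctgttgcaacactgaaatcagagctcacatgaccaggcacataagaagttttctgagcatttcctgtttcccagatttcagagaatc

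At the following pair both factors were called but their calls differed between the lines. The *Bcl2* stretch held a CEBP site and no ETS site, and the *Bid* stretch held an ETS site at its PU.1 end.
Bcl2, intron, PU.1+-only PU.1 at a shared CEBPA peak, chr1:106678337-106678515: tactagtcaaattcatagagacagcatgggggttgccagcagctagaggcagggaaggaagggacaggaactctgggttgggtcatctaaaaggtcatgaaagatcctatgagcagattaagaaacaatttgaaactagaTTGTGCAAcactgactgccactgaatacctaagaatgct
Bid, intron, PU.1+-only PU.1 and PU.1−-only CEBPA, chr6:120915125-120915404: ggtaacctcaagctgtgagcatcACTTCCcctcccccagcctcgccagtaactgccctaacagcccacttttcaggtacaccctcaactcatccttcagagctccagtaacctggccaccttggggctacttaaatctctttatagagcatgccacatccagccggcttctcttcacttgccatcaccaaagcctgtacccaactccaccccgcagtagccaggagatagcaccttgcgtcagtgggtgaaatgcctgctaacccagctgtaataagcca

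The last stretches were bound by 1 factor and were, of the stretches without a UTR base, those nearest to the start of their gene. Stretches that ran into a UTR were left out, which removed 2 at *Mcl1*, among them that of the peak centred 5 bp before its start. The *Mcl1* stretch held an ETS and a CEBP site with starts 17 bp apart under a PU.1 peak, without a CEBPA peak.
Mcl1, downstream, PU.1+-only PU.1, chr3:95663207-95663286: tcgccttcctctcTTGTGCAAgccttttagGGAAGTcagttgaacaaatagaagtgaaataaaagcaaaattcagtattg
Bak1, upstream, PU.1+-only PU.1, chr17:27042899-27042978: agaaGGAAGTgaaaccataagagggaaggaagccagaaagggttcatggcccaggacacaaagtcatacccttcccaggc
Bcl2, intron, CEBPA shared, chr1:106702799-106702905: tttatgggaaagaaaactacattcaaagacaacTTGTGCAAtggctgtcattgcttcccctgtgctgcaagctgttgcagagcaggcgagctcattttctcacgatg
Bcl2l11, intron, CEBPA shared, chr2:128137191-128137270: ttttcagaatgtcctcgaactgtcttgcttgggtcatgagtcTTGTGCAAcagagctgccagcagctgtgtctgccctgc
Bid, intron, CEBPA shared, chr6:120894690-120894772: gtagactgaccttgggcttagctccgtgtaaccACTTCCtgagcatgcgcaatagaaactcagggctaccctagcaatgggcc

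Across the 10 genes, PU.1 had 6 peaks in the PU.1− line but 25 in the PU.1+ line, and 20 of the 25 were PU.1+-only and 5 shared. CEBPA had 27 peaks in PU.1− but 23 in PU.1+, of which 20 were shared, with 3 PU.1+-only and 7 PU.1−-only peaks. These shares were near those of the whole lists. PU.1+-only peaks were 80% of the 25 PU.1 peaks, against 81.1% of all, and 13% of the 23 CEBPA peaks, against 12.1%. PU.1−-only peaks were 25.9% of the 27 CEBPA peaks, against 30.7%.

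The anti-apoptotic genes held most of the PU.1+-only peaks of PU.1. Their PU.1 peaks went from 3 to 19, with 16 PU.1+-only, and their CEBPA peaks stayed at 14. The effector genes went from 1 to 3 PU.1 peaks and from 1 to 2 CEBPA peaks. All of these effector peaks lay nearer to the start of another gene, as did 13 of the 81 peaks at the 10 genes. The BH3-only genes went from 2 to 3 PU.1 peaks and from 12 to 7 CEBPA peaks, and they held 5 of the 7 PU.1−-only CEBPA peaks. These were 5 of their 12 CEBPA peaks in PU.1−, against 30.7% of the whole list. *Bcl2l11* alone had 3 of the 5, and *Bid* and *Bbc3* had 1 each. *Bcl2* and *Mcl1* account for 15 of the 16 PU.1+-only PU.1 peaks at anti-apoptotic genes, so the difference in PU.1 between the groups rests on these genes.

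A PU.1+-only PU.1 peak was found at 7 of the 10 genes, where 36.7% of all protein-coding genes had one. At *Bcl2l1*, *Bax* and *Bak1* that peak lay nearer to the start of another gene. A shared PU.1 peak was found at 4 of 10 (*Bcl2*, *Mcl1*, *Bak1* and *Bid*), against 13.4% of all genes. A PU.1−-only PU.1 peak was found at 1 of 10 (*Bcl2l11*), against 13.7%. For CEBPA, 3 of 10 (*Bcl2*, *Mcl1* and *Bax*) had a PU.1+-only peak, against 11.4%, 6 of 10 had a shared peak, against 48.3%, and 5 of 10 had a PU.1−-only peak, against 30.1%. With 10 genes these shares are coarse, and a longer gene has more room for peaks. Per 100 kb searched, the 10 genes together held 3.4 PU.1 peaks in PU.1+, against 0.937 for all genes pooled. For PU.1 in PU.1− the densities were 0.817 and 0.367, for CEBPA in PU.1− 3.68 and 1.69, and for CEBPA in PU.1+ 3.13 and 1.34. *Bcl2* and *Mcl1* supplied most of the PU.1 peaks in PU.1+, and the other 8 genes held 7, or 1.48 per 100 kb.

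**Figure D1:**
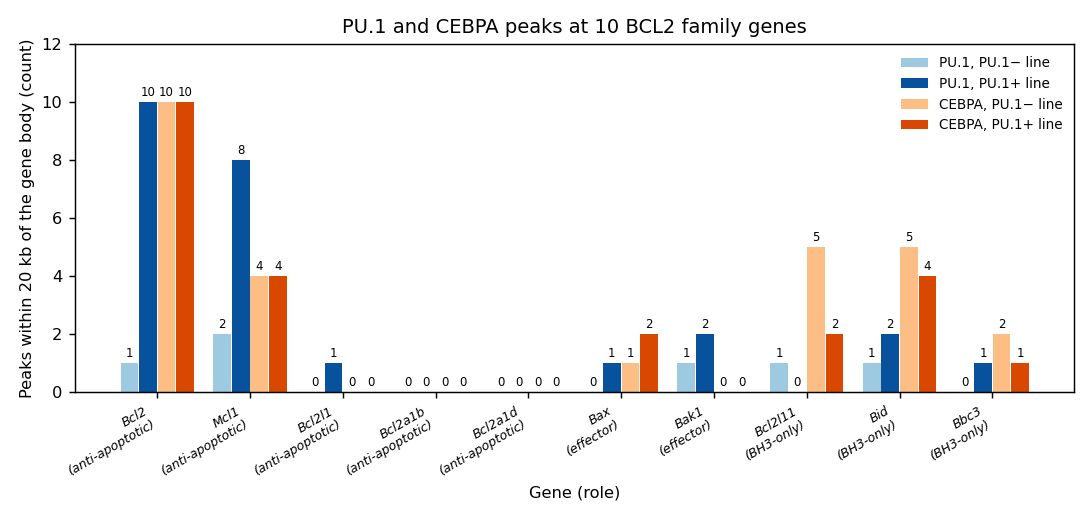
The bars give the number of peaks whose centre lay in the gene body or within 20 kb of it, for each of the 10 genes (x axis) and each of the 4 libraries (colours), with 1 library per bar and so no error bar. PU.1 peaks went from 1 to 10 at *Bcl2* and from 2 to 8 at *Mcl1*, while *Bcl2l11* went from 1 to 0, and *Bcl2a1b* and *Bcl2a1d* had no peak in any list.

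*Mcl1* encodes a short-lived anti-apoptotic protein that sequesters BIM and BAK1. At this gene (ENSMUSG00000038612.16, chr3:95658788-95663176, plus strand) PU.1 had 2 peaks in PU.1− but 8 in PU.1+, and there were 4 CEBPA peaks in each line. *Mcl1* is only 4.39 kb long, and its 8 PU.1 peaks lay in a window of 44.4 kb, or 18 per 100 kb. Among the 21938 protein-coding genes, no other had as high a density by this rule, while 148 including *Mcl1* had 8 or more such peaks. The row of peaks was not particular to *Mcl1*: the window of its neighbour *Adamtsl4*, 51.7 kb long, also held 8, and 5 of them lay in both windows. With windows of 10 kb or 50 kb, settings chosen after the data were seen, 2 genes including *Mcl1* had a density as high as its 24.6 and 11.5 peaks per 100 kb. For PU.1+-only PU.1 peaks, 4 genes including *Mcl1* reached its 13.5 per 100 kb.

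The PU.1 peaks of *Mcl1* formed a row from 13.3 kb upstream to 15.1 kb downstream of its start. The peaks 13.3 kb and 7.97 kb upstream were shared, with centres that differed between the lines by 17 bp and 1 bp. Both held the PU.1-type sequence GAGGAAGT within 15 bp of the centre. The other 6 were PU.1+-only. Of these, chr3:95653556-95653955 lay 5.03 kb upstream, chr3:95658584-95658983 was centred 5 bp before the start, and chr3:95661806-95662205 was centred in the UTR, 3.22 kb into the gene. The remaining 3 lay past the gene's end, at 4.46 kb, 10.4 kb and 15.1 kb from its start, and the last was nearer to the start of *Adamtsl4*. An ETS site stood in the central 80 bp of 6 of the 8 peaks, and the peaks 10.4 kb and 15.1 kb from the start had none there.

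CEBPA at *Mcl1* shared 3 of its 4 peaks between the lines. The shared peaks lay 7.98 kb upstream beside the shared PU.1 peak, 0.754 kb into the gene in an intron, and 10.4 kb downstream of the start, where a PU.1+-only PU.1 peak was centred 1 bp away. A CEBPA peak 7.08 kb upstream was PU.1−-only. One 4.97 kb upstream was PU.1+-only, and its centre was 60 bp from that of a PU.1+-only PU.1 peak. The first printed stretch is this place, with ETS under the PU.1 centre and CEBP under the CEBPA centre. The number of CEBPA peaks was therefore equal in the lines, but 1 position differed each way.

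*Bcl2* is the founding anti-apoptotic gene of the family and the longest of the 10, at 176 kb (ENSMUSG00000057329.7, chr1:106538178-106714274, minus strand). It had 1 PU.1 peak in PU.1− but 10 in PU.1+, of which 9 were PU.1+-only. Of 21938 genes, 46 (0.21%) including *Bcl2* had 9 or more such peaks. The window searched was 216 kb, and its 4.63 PU.1 peaks per 100 kb were reached or passed by 1015 genes including *Bcl2*, where 1 gene, *Mcl1* itself, reached that of *Mcl1*.

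No PU.1 peak lay at the start of *Bcl2*. The nearest was in an intron 18.3 kb into the gene, 8 of the 10 were intronic, and the farthest lay 189 kb and 195 kb from the start, past the gene's end. The shared peak lay 145 kb into the gene, in an intron, at chr1:106568890-106569289 in PU.1+ and chr1:106569004-106569403 in PU.1−. Their centres were 114 bp apart, farther than 92% of the 2969 shared PU.1 peaks, whose median distance was 23 bp. The ETS site of the printed stretch lay within 40 bp of the centre in PU.1+ and farther from it in PU.1−. CEBPA was called between these centres in both lines.

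CEBPA had 10 peaks at *Bcl2* in each line, 9 of them shared. The peak at the promoter, centred 0.148 kb into the gene in the UTR, was PU.1−-only. The peak 85.9 kb into the gene was PU.1+-only, and its centre was 26 bp from that of a PU.1+-only PU.1 peak. Under that PU.1 centre there was no GGAAGT, but a RUNX sequence (TGTGGT or TGCGGT), an AP-1 sequence (TGANTCA) and the PU.1-IRF composite GGAANNGAA. At 35.9 kb and 18.3 kb, PU.1+-only PU.1 peaks overlapped shared CEBPA peaks with centres 61 bp and 64 bp apart, and neither PU.1 peak held an ETS site in its central 80 bp. CEBPA peaks without a PU.1 peak, at 11.4 kb, 49.2 kb, 131 kb, 174 kb and 187 kb from the start, were shared by the lines.

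**Figure D2:**
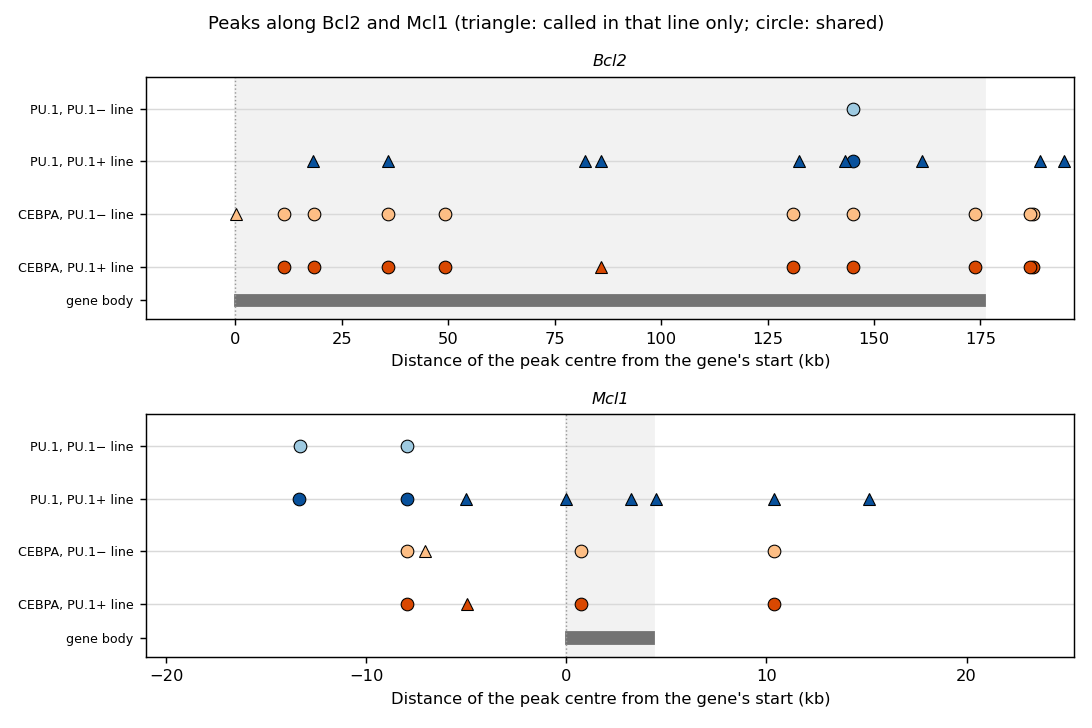
Each symbol is a peak, placed by the distance of its centre from the start of *Bcl2* (upper panel) or *Mcl1* (lower panel) in kb along the gene's direction, in 1 row per library, with the gene body as a grey bar, circles for shared peaks and triangles for peaks called in that line only. At *Bcl2*, PU.1 has 9 triangles in PU.1+ against 1 circle in PU.1−, and at *Mcl1* the 6 triangles run from 5.03 kb upstream to 15.1 kb downstream of the start.

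*Bcl2l1*, which encodes BCL-XL, had 1 PU.1 peak, which was PU.1+-only, and no CEBPA peak (ENSMUSG00000007659.18, chr2:152780668-152831728, minus strand). The peak lay in an intron 42.7 kb from the start, nearer to the start of *Cox4i2*, and held none of the 7 motifs in its central 80 bp. The nearest CEBPA peak was 38.9 kb outside the gene in both lines. A single PU.1 peak was common: 9092 of 21938 genes had at least 1 in PU.1+.

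*Bcl2a1b* and *Bcl2a1d* are near-identical copies of the gene for A1, on chromosome 9 (ENSMUSG00000089929.1, chr9:89199209-89207827, plus strand, and ENSMUSG00000099974.1, chr9:88723285-88731914, minus strand). Neither had a peak in any of the 4 lists. The nearest PU.1 peak in PU.1+ was 294 kb from *Bcl2a1b* and 183 kb from *Bcl2a1d*, and the nearest CEBPA peak in PU.1+ was 45.8 kb and 180 kb away. The other copies, *Bcl2a1a* and *Bcl2a1c*, also had no peak. Of all words of 50 bases in the window of *Bcl2a1b*, 55.6% also occurred in the window of another copy, and of those of *Bcl2a1d* 51.3%. How reads that fit several copies were treated is not given in the sources used here, and the part of this in the absence of peaks was not tested.

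Both copies carry the PU.1-type sequence just upstream of their start. The promoters also matched in further stretches, and each held 1 AP-1 sequence (TGANTCA). Printed here are only the 43 bases around GAGGAAGT that match without a break, 5′ to 3′ along the genes, from the RefSeq promoters (GRCm38.p6). They lie at chr9:89199122-89199164 for *Bcl2a1b* and chr9:88731915-88731957 for *Bcl2a1d*, with GAGGAAGT in capitals.
Bcl2a1b and Bcl2a1d: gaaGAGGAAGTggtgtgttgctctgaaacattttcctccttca
Among 32851 RefSeq promoters, 2.44% held this sequence in the 250 bases before the start. The promoter of *Bak1* also held it, and no peak overlapped these 3 promoters. The promoter of *Mcl1*, which a PU.1 peak in PU.1+ overlapped, held no GGAAGT in those 250 bases. This RefSeq promoter, chr3:95658471-95658720, ends before the GENCODE start at chr3:95658788, from which the distances of the peaks were counted. The ETS site near the GENCODE start of *Mcl1* lay 6 bp from the peak's centre, past the end of the RefSeq promoter.

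BAX is a cytosolic effector that moves to mitochondria on activation. *Bax* (ENSMUSG00000003873.11, chr7:45461697-45466898, minus strand) had no PU.1 peak in PU.1− but 1 in PU.1+, and CEBPA had 1 and 2 peaks, respectively. It was the only one of the 10 genes with more CEBPA peaks in PU.1+, as were 6.72% of all genes. The PU.1 peak chr7:45457367-45457766 and the CEBPA peak chr7:45457327-45457726, both PU.1+-only, had centres 40 bp apart, and the printed *Bax* stretch lies under them. All 4 peaks in the window lay nearer to the start of *Ftl1*, the ferritin light chain gene, than to that of *Bax*. The paired peaks were 2085 bp and 2125 bp from the *Ftl1* start, and the CEBPA peak shared by the lines was at its promoter, so position alone does not tie them to *Bax*.

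BAK1 is the effector that resides in the mitochondrial membrane. *Bak1* (ENSMUSG00000057789.14, chr17:27019810-27029009, minus strand) had 1 PU.1 peak in PU.1− but 2 in PU.1+, without a CEBPA peak in either line. The PU.1+-only peak lay 13.9 kb upstream, at chr17:27042739-27043138, and held both GGAAGT and GGAANNGAA, which overlap in the printed *Bak1* stretch. The shared peak lay 16.9 kb from the start, past the gene's end, and its centre differed between the lines by 73 bp, farther than 83.5% of shared PU.1 peaks. As at *Bcl2*, an ETS site, here of the ETS1-type (CAGGAAGT or CCGGAAGT), stood in the central 80 bp in PU.1+ and not in PU.1−. All 3 peaks lay nearer to the start of *Ggnbp1*.

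**Figure D3:**
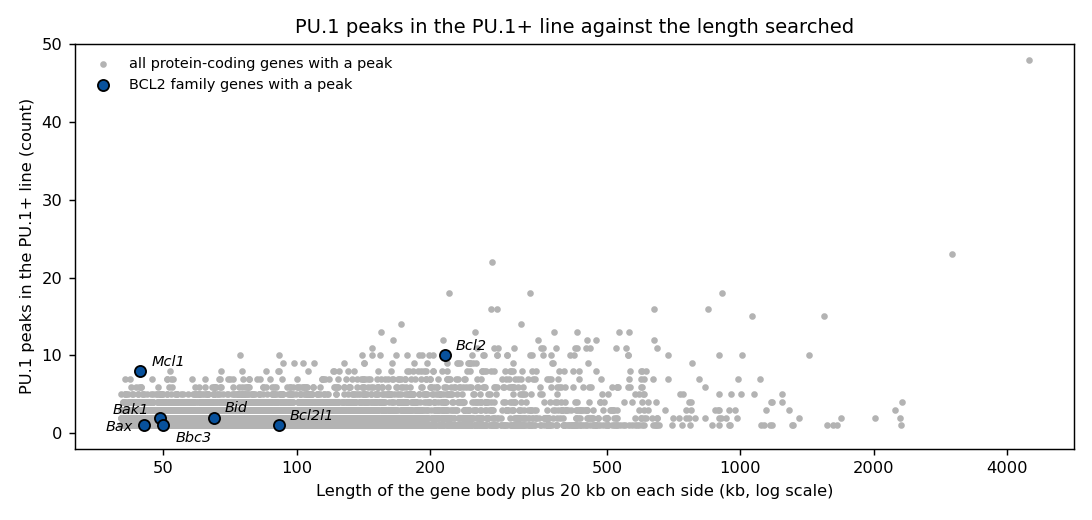
Each grey point is a protein-coding gene with at least 1 PU.1 peak in the PU.1+ line, placed by the length of its body plus 20 kb on each side (x axis, kb, log scale) and its number of PU.1 peaks (y axis), and the blue points are the 7 BCL2 family genes with such a peak. *Mcl1*, with 8 peaks in 44.4 kb, has more than any gene searched over a shorter length, *Bcl2*, with 10 in 216 kb, lies within the upper range for its length, and the other 5 have 1 or 2 peaks.

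BIM, the product of *Bcl2l11*, is a BH3-only protein that, like PUMA, binds all the main anti-apoptotic proteins. *Bcl2l11* (ENSMUSG00000027381.16, chr2:128126038-128162547, plus strand) was the one gene of the 10 with fewer PU.1 peaks in PU.1+. It had 1 PU.1 peak in PU.1− but 0 in PU.1+, where the nearest PU.1 peak lay 40.8 kb away. Of all genes, 1063 (4.85%) had PU.1 peaks in PU.1− and none in PU.1+. Its CEBPA peaks went from 5 to 2, and it had no PU.1+-only peak of either factor.

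The PU.1 peak that PU.1+ lacked was at the promoter. The PU.1 peak chr2:128125624-128126023 and the CEBPA peak chr2:128125615-128126014 were centred 0.215 kb and 0.224 kb before the start, 9 bp apart, and both were PU.1−-only. Regions of this kind made up 1 of 45 merged regions at the 10 genes and 290 of 40138 (0.723%) in all. The other PU.1−-only CEBPA peaks lay 14.3 kb upstream and 22.7 kb into the gene. The CEBPA peaks 11.2 kb and 27.1 kb into the gene were shared, with centres 0 bp and 8 bp apart between the lines, and the first held the CEBP site of the printed *Bcl2l11* stretch.

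The promoter peaks of *Bcl2l11* held neither the ETS nor the CEBP sequence in their central 80 bp. The 250 bases before the RefSeq start are printed along the gene (GRCm38.p6, plus strand), with capitals for the only match to the motifs searched, a RUNX sequence on the minus strand.
Bcl2l11 promoter, chr2:128125788-128126037: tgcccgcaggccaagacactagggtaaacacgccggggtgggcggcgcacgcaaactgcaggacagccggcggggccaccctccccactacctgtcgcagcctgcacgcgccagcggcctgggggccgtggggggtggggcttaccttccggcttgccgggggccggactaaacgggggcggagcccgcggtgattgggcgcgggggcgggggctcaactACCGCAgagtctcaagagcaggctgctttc
A RUNX sequence stood in 18.6% of the 32851 RefSeq promoters, and GGAAGT in 19.7%. Over the whole series, 36.8% of the PU.1−-only PU.1 peaks were at a promoter, against 8.58% of the PU.1+-only ones.

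BID links the death receptors to mitochondria once caspase-8 has cleaved it. *Bid* (ENSMUSG00000004446.12, chr6:120891930-120916853, minus strand) had 1 PU.1 peak in PU.1− but 2 in PU.1+, and CEBPA had 5 and 4. An intron 14.7 kb into the gene was bound by both factors in both lines. Its PU.1 centres were 8 bp apart and its CEBPA centres 9 bp apart, all 4 peaks held the PU.1-type sequence, and a RUNX sequence stood beside it. In another intron, a PU.1+-only PU.1 peak was centred 1.69 kb into the gene with an ETS site 14 bp from its centre, and a PU.1−-only CEBPA peak was centred at 1.49 kb and overlapped it. This combination was seen in 1 of 45 regions at the 10 genes and in 266 of 40138 (0.663%) overall. The CEBPA peaks 4.96 kb, 22.1 kb and 44 kb from the start were shared with centres at most 3 bp apart, and the last lay nearer to the start of *Bcl2l13*.

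PUMA, the product of *Bbc3*, is a BH3-only protein induced by p53. *Bbc3* (ENSMUSG00000002083.13, chr7:16308393-16318205, plus strand) had no PU.1 peak in PU.1− but 1 in PU.1+, and CEBPA had 2 and 1. The PU.1 peak chr7:16308422-16308821 was at the promoter by the GENCODE start, 0.228 kb into the gene. It held the PU.1-IRF composite and no GGAAGT. The nearest PU.1 peak in PU.1− was 64.1 kb away. A CEBPA peak 4.06 kb into the gene was PU.1−-only, and the shared CEBPA peak 13.4 kb upstream lay nearer to the start of *Ccdc9*. Near their GENCODE starts, *Bcl2l11* and *Bbc3* thus had opposite PU.1 calls, only in PU.1− at the first and only in PU.1+ at the second. The RefSeq promoters of *Bbc3* lie farther into the gene, and no peak overlapped them. The contrast therefore depends on the start that is used.

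**Figure D4:**
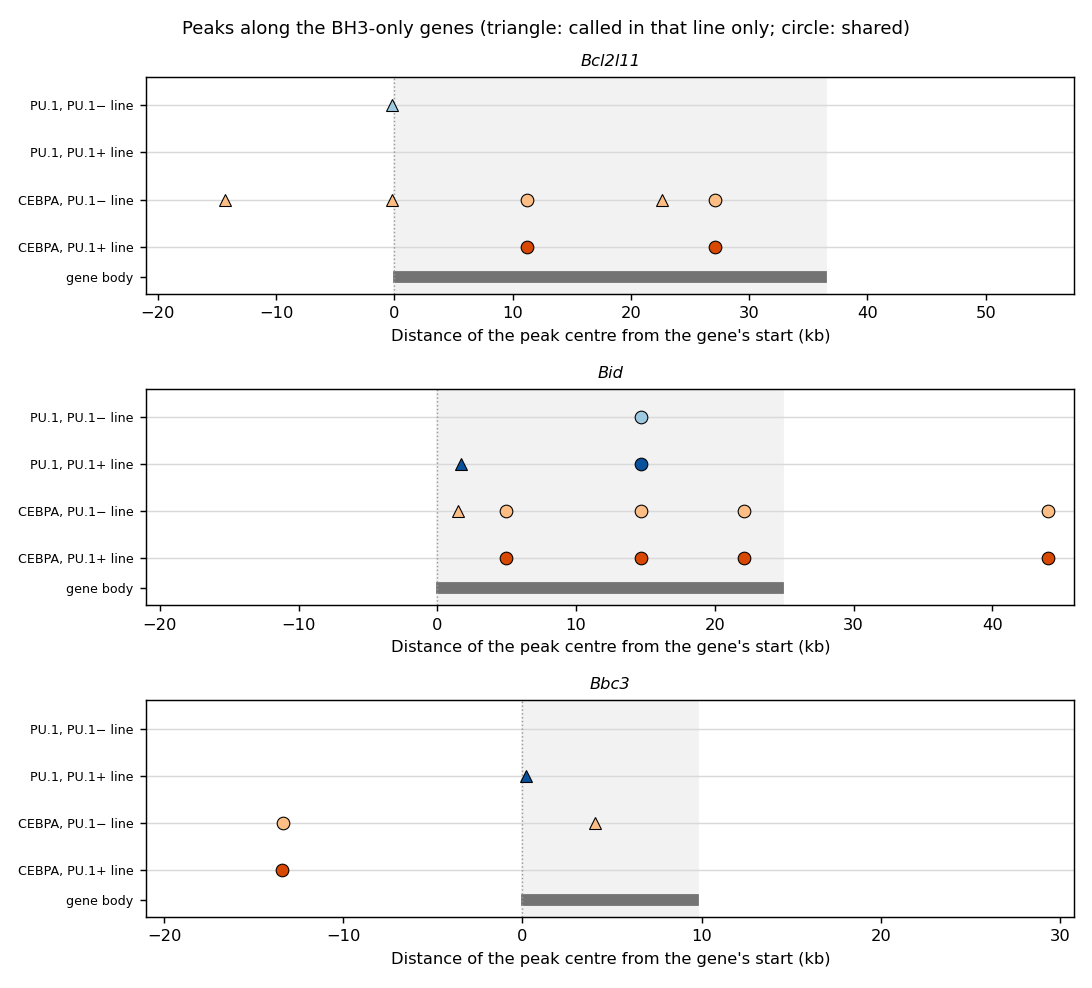
Each symbol is a peak, placed by the distance of its centre from the start of *Bcl2l11*, *Bid* or *Bbc3* in kb along the gene's direction, in 1 row per library, with the gene body as a grey bar, circles for shared peaks and triangles for peaks called in that line only. *Bcl2l11* has 3 CEBPA triangles and 1 PU.1 triangle, all in PU.1−, *Bid* has a PU.1 triangle in PU.1+ beside a CEBPA triangle in PU.1−, and *Bbc3* has its only PU.1 peak near the start in PU.1+.

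The PU.1 peaks at these genes had shares near those of the whole PU.1 list in most respects. The 95% interval for the 80% of PU.1+-only peaks was 59.3 to 93.2. An ETS site stood in the central 80 bp of 14 of 25 or 56% (34.9 to 75.6), against 43.5% of all PU.1 peaks in PU.1+ and 4.44% of 80-bp windows 2000 bp to either side. Among the 20 PU.1+-only peaks it was 9 or 45% (23.1 to 68.5), against 42.9%. All 5 shared peaks held one at their PU.1+ centres (47.8 to 100), against 46.1% of shared PU.1 peaks. At their PU.1− centres, those of *Bcl2* and *Bak1* held none. The PU.1− line had 6 PU.1 peaks, and 3 or 50% (11.8 to 88.2) held the PU.1-type sequence, against 7.38% of all, and these were the shared peaks of *Mcl1* and *Bid*. The intervals are exact (Clopper-Pearson) and hold for counting error alone. They include the value of the whole list except in these last cases, which rest on 5 and 6 peaks.

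CEBP sites were found under fewer of the CEBPA peaks at these genes than in the whole lists, but the intervals include the whole lists' values. In PU.1+ they lay under 7 of 23 or 30.4% (13.2 to 52.9), against 38.2%. In PU.1− they lay under 6 of 27 or 22.2% (8.62 to 42.3), against 35.6%. *Bcl2* held 4 of the 6.

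In the PU.1+ line the peaks of the factors overlapped at 9 places. These were 36% (18 to 57.5) of the 25 PU.1 peaks, against 29.8% of the whole list, and 39.1% (19.7 to 61.5) of the 23 CEBPA peaks, against 22.7%. All 3 PU.1+-only CEBPA peaks, at *Bcl2*, *Mcl1* and *Bax*, overlapped a PU.1+-only PU.1 peak (29.2 to 100), against 36.8% of such CEBPA peaks in the series. In the other direction, 3 of the 20 PU.1+-only PU.1 peaks or 15% (3.21 to 37.9) overlapped such a CEBPA peak, against 7.17%. A further 4 of the 20, or 20% (5.73 to 43.7), overlapped a CEBPA peak of PU.1−, against 18.1%. The remaining 13 stood apart from CEBPA in both lines.

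**Figure D5:**
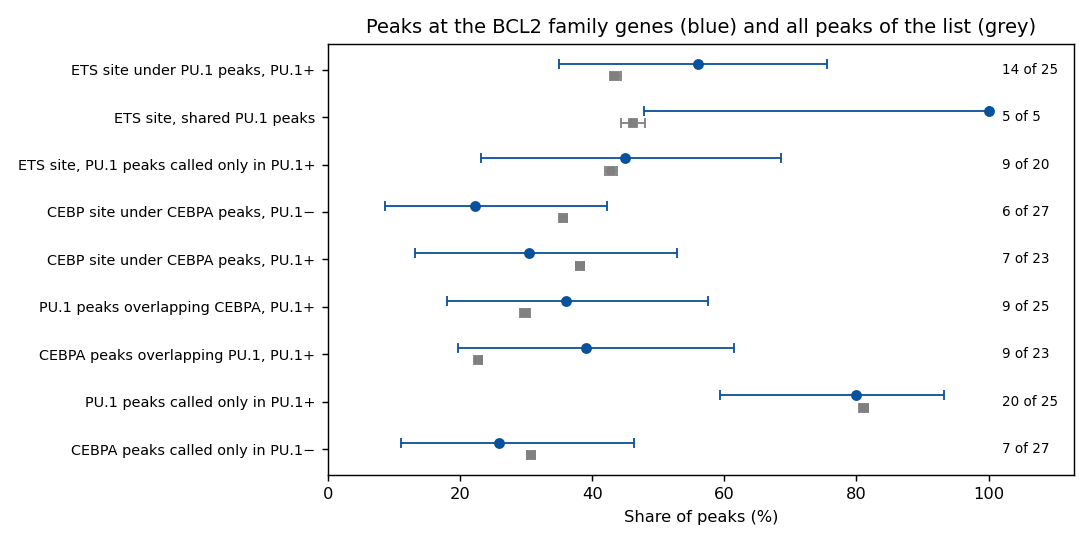
Points give the share of peaks (x axis, %) with each property for the peaks at the 10 BCL2 family genes (blue circles, with their number at the right) and for all peaks of the same list or class (grey squares), and bars are exact 95% intervals for counting error. Of the 9 shares drawn, the blue interval leaves out the grey value only for ETS sites under shared PU.1 peaks, where 5 of 5 compare with 46.1%. That share was counted at the PU.1+ centres, and at the PU.1− centres the peaks of *Bcl2* and *Bak1* held no such site.

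Across the rest of the pathway, PU.1+-only PU.1 peaks were found at some genes of each list examined. Of 16 other BCL2 family genes, 6 had one, against 36.7% of all genes. *Bmf* and *Pmaip1*, which encode the BH3-only proteins BMF and NOXA, had 4 each, and *Bcl2l15* had 3. *Bad* and *Bik*, which are BH3-only genes, and *Bcl2l13* had 1 each. Shared PU.1 peaks were found at 4 of the 16, against 13.4% of all genes, and PU.1−-only ones at 2, against 13.7%. *Bcl2l13* neighbours *Bid*, and 1 of the 2 PU.1 peaks in PU.1+ lay in both windows. Of 14 genes for the apoptosome, caspases and their inhibitors, 8 had a PU.1+-only PU.1 peak, against 36.7% of all genes. *Apaf1*, the apoptosome scaffold, led with 4. Of 8 death receptor genes, 4 had one, against the same 36.7%, led by *Tnfrsf1a*, the receptor for TNF, with 4. With lists this short these shares are coarse, and the length searched was not taken into account. None of these genes reached the 9 such peaks of *Bcl2* or the 6 of *Mcl1*.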

How the data were processed

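The authors mapped ChIP-Seq reads to mm10 and called peaks, using Bowtie2 2.0.6 and MACS2 2.0.10 according to the submitters' processing notes. The deposited lists for PU.1 and CEBPA hold peak coordinates only, with no other value, and the calling threshold is not given in the sources used here. Of 8 samples, H3K27Ac and IgG were not analysed here. Groups followed the sample labels.

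Peaks were assigned to protein-coding genes of GENCODE vM21 by their centre, within 20 kb of the gene body. Peaks from 1 antibody with at least 1 bp in common between the lines were shared, and were counted in PU.1+ unless stated otherwise. Promoter peaks were centred within 1000 bp of a protein-coding start. Exact motif matches were counted on both strands in the central 80 bp of each peak, read from GRCm38. GAGGAAGT, CAGGAAGT and CCGGAAGT are longer forms of GGAAGT and count under both. Stretches with any base in a UTR were not printed, which left out 2. Of the 21 others that held an ETS or CEBP site, 12 were printed: all 7 with both factors, then for each gene that nearest to its start. Of the other BCL2 family genes, those with a PU.1+-only PU.1 peak were named, and of the other lists the gene with the most. The genes, lists and motifs were chosen with earlier results of these data known.

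The alternatives were other windows, any overlap with the window, the study's 50-kb assignment, stricter overlap, longer motif windows, and leaving out *Bcl2* or the *Bcl2a1* copies. The class and motif steps were tested on simulated data. Python 3.11.15, numpy 2.4.6, scipy 1.17.1, pysam 0.24.0 and matplotlib 3.10.9 were used.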

Additional observations from a re-analysis of the deposited data

How the results depend on the processing

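Of 96 values recomputed under 10 alternatives, 82 stayed within a factor of 1.5 of the reported count or within the interval of the reported share, and 14 moved. With a 50-kb window there were 38 PU.1 peaks in PU.1+ (8 shared), and 46 and 39 CEBPA peaks in PU.1− and PU.1+ (33 shared, 6 called only in PU.1+ and 13 only in PU.1−). Without *Bcl2* there were 15 PU.1 peaks in PU.1+, 11 of them called only there, and 17 and 13 CEBPA peaks, 11 of them shared. With peak centres within 100 bp required for sharing, 2 PU.1 peaks were called only in PU.1−, the second being that of *Bcl2*. With the whole peak searched, 76% of the PU.1 peaks in PU.1+ held an ETS site. The shares of the whole list and of the flanking windows given above are for 80 bp, so they are no background for this value. The number of genes as dense in PU.1 peaks as *Mcl1* was 2 in place of 1 with windows of 10 kb and 50 kb. The pooled density of PU.1 peaks in PU.1+ at the 10 genes was 1.48 in place of 3.4 per 100 kb without *Bcl2* and *Mcl1*. These last settings were chosen after the data were seen. No paired analysis was possible because each antibody and line had 1 library. A stricter peak threshold was not run, as the lists carry no scores, and whether a missing call lay just under the threshold of its library was not tested.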
